A study of Drosophila melanogaster and Drosophila simulans and Drosophila yakuba with 8 samples.

Results

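The sperm leucylaminopeptidases (S-Laps) of Drosophila melanogaster are a family of testis proteins related to leucyl aminopeptidases, metal-dependent enzymes that remove amino acids from the amino end of peptides. The family was defined by name as S-Lap1, S-Lap2, S-Lap3, S-Lap4, S-Lap5, S-Lap7, S-Lap8 and loopin-1, and their current symbols were matched to the gene identifiers of the deposited tables. Of these 8 genes, 7 were found among the 15178 genes listed. The identifier of loopin-1 (FBgn0259795) was not matched, and loopin-1 was not analysed here. Its reads may be listed under another identifier, possibly among the genes that serve below as other genes.

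As background, S-Laps are among the most abundant proteins of the fly sperm. During spermatid elongation the mitochondria fuse and form derivatives that run along the tail, and these fill with a dense paracrystalline material of which S-Laps are structural components. Several family members have lost residues that a leucyl aminopeptidase needs for catalysis. Fly spermatids rely largely on messenger RNA made earlier, in spermatocytes, and stored until it is translated.

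Messenger RNA of dissected testes from adults of 1 to 7 days was sequenced in 6 D. melanogaster libraries, all labelled with the strain Oregon-R and with standard cornmeal food. In 2 libraries the driver nosGal4 expressed UAS-Zeus-RNAi, in 2 it expressed UAS-Caf40-RNAi, and 2 were wildtype without driver or construct. The nos promoter is active in the germline, Caf40 is the gene Rcd-1, which encodes part of the CCR4-NOT deadenylase, and Zeus is its retrotransposed copy Rcd-1r. No driver-only testes were analysed here, so driver, background and knockdown cannot be told apart. The labels do not say whether libraries of a group came from separate flies, so the p-values reflect how these particular libraries vary, some or all of which may be technical.

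The libraries held between 12662615 and 24429722 reads on genes. Rcd-1r measured 4.05 and 4.04 RPKM (reads per unit of exon length and of sequencing depth) in the Zeus knockdown against 22.2 and 26.4 in wildtype. Rcd-1 measured 25.7 and 23.3 RPKM in the Caf40 knockdown against 98.2 and 95.1 in wildtype, so each library carried the reduction its label names. Rcd-1r rose in the Caf40 knockdown, to 134.5 and 114 RPKM (log2 fold change 2.12, SE 0.10, edgeR adjusted p = 2.56e-10), so the parental gene was low and its copy high there. The sperm tail genes of the Mst(3)CGP group summed to between 11949 and 15453 RPKM in each library, the 8 accessory gland and duct genes to between 2.61 and 18.8 RPKM, and the 6 muscle genes found to between 37.4 and 73.5 RPKM. The 7 early germline genes summed to 245 and 198 RPKM in the Caf40 knockdown, 42.8 and 42.6 in the Zeus knockdown and 73.6 in both wildtype libraries. In whole testes, fewer cells of a type and less RNA per cell cannot be told apart.

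In the current annotation the 4 genes S-Lap1 to S-Lap4 lie on chromosome arm 3L and S-Lap5, S-Lap7, S-Lap8 and loopin-1 on 2R. S-Lap1 (FBgn0035915, CG6372) and S-Lap2 (FBgn0052351, CG32351) are direct neighbours on the same strand, with 0 annotated genes between them. S-Lap3 (FBgn0045770, CG32063) and S-Lap4 (FBgn0052064, CG32064) are also on the same strand, 2 annotated genes apart, as are S-Lap8 (FBgn0034132, CG4439) and loopin-1. S-Lap5 (FBgn0033860, CG18369) and S-Lap7 (FBgn0033868, CG13340) have 15 genes between them and point in opposite directions. S-Lap4 lies in an intron of Rbfox1 on the same strand, S-Lap7 lies in an intron of Cpr50Ca on the opposite strand, and S-Lap2 shares 53 exon bases with GAPsec on the opposite strand. Rbfox1 measured at most 9.46 RPKM, Cpr50Ca at most 0.496 and GAPsec at most 11.5 RPKM in any library, which is small beside the levels of these S-Laps. The S-Laps are related in sequence, and the sources used here do not say how reads matching several genes were counted. An exchange of reads among them was not tested.

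The S-Laps were among the most abundant transcripts of the wildtype testis, with the exception of S-Lap5. S-Lap1 was the highest at 2672 and 2765 RPKM and ranked 7 of all 15178 genes in both wildtype libraries. S-Lap7 measured 2295 and 2337 RPKM and ranked 17 in both. S-Lap4 followed at 2064 and 2106 RPKM.

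The next 3 genes formed a close group by RPKM. S-Lap3 measured 1450 and 1425 RPKM, S-Lap8 1407 and 1370 RPKM, and S-Lap2 1258 and 1237 RPKM, with ranks between 39 and 51. The closeness of S-Lap3 rests on its deposited exon length of 2560, against 2016 for S-Lap8 and 2097 for S-Lap2. In wildtype reads S-Lap3 had 93169 and 84797, against 71167 and 64235 for S-Lap8. S-Lap5 stood apart at 214 and 212 RPKM, ranked 560 and 583. No 2 neighbours in this order had overlapping wildtype libraries, although S-Lap3 exceeded S-Lap8 only 1.04-fold in the mean, while S-Lap2 exceeded S-Lap5 5.85-fold. The same order from S-Lap1 to S-Lap5 was found in each of the 6 libraries.

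**Figure D1:**
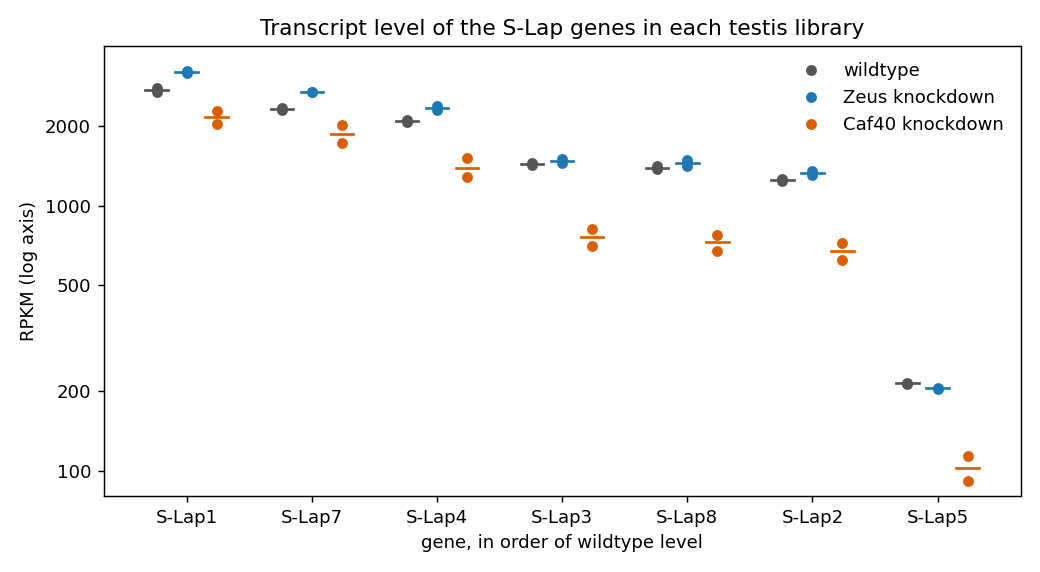
Level of each S-Lap gene in RPKM (vertical log axis) by gene, in order of wildtype level. Each point is a library and each bar a mean of 2 libraries, and the 6 higher genes lie between 622 and 3224 RPKM while S-Lap5 lies between 91.0 and 214.

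Together the 7 genes took 2.51% and 2.54% of all gene reads in wildtype. With Zeus knocked down the share was 2.81% and 2.74%, and with Caf40 knocked down 1.57% and 1.80%, without overlap between the 3 groups. Their summed level was 11407 ± 65.0 RPKM in wildtype, 12644 ± 227 with Zeus and 7666 ± 774 with Caf40 knocked down (SD, n = 2). Between 2488 and 151011 reads lay behind each value, which gives a counting error of at most 2.00%. For a single value such as this share, exact permutation of 2 against 2 libraries gives no p below 0.333.

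In the Caf40 knockdown all 7 S-Laps fell. This contrast asked which testis transcripts change when the parental CCR4-NOT subunit is depleted. By edgeR's quasi-likelihood test, adjusted over the 10223 genes with a mean of at least 1 RPKM, their falls lay between 1.45-fold and 2.44-fold, with a median log2 fold change of -1.12 against 0.06 over all genes tested. In the background, 38.6% of all genes tested fell and 41.9% rose, 80.5% together. For the RPKM values alone, both Caf40 knockdown libraries lay below both wildtype libraries for each S-Lap, as they did for 35.8% of all genes tested, while 54.4% had both above. Among 555 other genes whose wildtype level lay within the range of the S-Laps, 80.9% fell, with a median of -0.67. A fall was therefore common among genes chosen by their wildtype level. That choice uses the wildtype libraries themselves. It leaves out genes that reach this level only in a knockdown, here and wherever these 555 genes are used below.

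The most abundant S-Laps fell least. S-Lap1 measured 2025 and 2273 RPKM, a log2 fold change of -0.57 (SE 0.13, adjusted p = 0.00124). S-Lap7 measured 1725 and 2009 RPKM, with a log2 fold change of -0.54 (SE 0.13, adjusted p = 0.00201). S-Lap4 measured 1276 and 1505 RPKM and fell further, by 0.81 on the log2 scale (SE 0.13, adjusted p = 5.95e-05).

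The next 3 genes by level fell by nearly the same amount. The fitted falls exceeded 2-fold, but the ratios of mean RPKM, without TMM factors, were 1.89-fold for S-Lap3, 1.91-fold for S-Lap8 and 1.86-fold for S-Lap2. S-Lap3 measured 705 and 815 RPKM, with a log2 fold change of -1.15 (SE 0.13, adjusted p = 1.24e-06). S-Lap8 measured 674 and 777 RPKM, with a log2 fold change of -1.16 (SE 0.13, adjusted p = 8.62e-07). S-Lap2 measured 622 and 722 RPKM, with a log2 fold change of -1.12 (SE 0.13, adjusted p = 1.23e-06).

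S-Lap5, the lowest member, had the largest fall. It measured 91.0 and 113 RPKM, a log2 fold change of -1.29 (SE 0.12, adjusted p = 1.90e-07). Caf40 knockdown replicate 1 was the lower library for each of the 7 genes. All 7 falls passed the threshold under each alternative tried, with each library left out included.

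In the Zeus knockdown the S-Laps differed little from wildtype. S-Lap1 rose, from 2672 and 2765 RPKM in wildtype to 3224 and 3156 RPKM (log2 fold change 0.38, SE 0.13, edgeR adjusted p = 0.0375), and it was the only member of the 7 to pass the threshold. In the background, 16.8% of all genes tested rose and 20.0% fell, 36.8% together. Of the 555 other genes at this level 36.6% rose and 2.16% fell. Leaving out Zeus knockdown replicate 1 or 2 gave an adjusted p of 0.296 or 0.276 for it, and leaving out wildtype replicate 1 or 2 gave 0.261 or 0.216, so the call was lost each time. The log2 fold change stayed between 0.36 and 0.40 in these 4 fits while the SE was between 0.22 and 0.24, since an arm then held 1 library, assumed to vary like the other groups.

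The other 6 genes did not pass. S-Lap7 measured 2674 and 2671 RPKM, above both wildtype libraries, with a log2 fold change of 0.36 (SE 0.13, adjusted p = 0.0512). S-Lap4 was also above both wildtype libraries, at 2374 and 2297 RPKM, with a log2 fold change of 0.31 (SE 0.13, adjusted p = 0.0810). S-Lap2 was above them at 1348 and 1305 RPKM, with a log2 fold change of 0.24 (SE 0.13, adjusted p = 0.154).

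S-Lap3 and S-Lap8 overlapped with wildtype. S-Lap3 measured 1496 and 1444 RPKM (log2 fold change 0.18, SE 0.13, adjusted p = 0.287), and S-Lap8 1486 and 1404 RPKM (0.21, SE 0.13, adjusted p = 0.215). S-Lap5 measured 203 and 206 RPKM, below both wildtype libraries, while its fitted log2 fold change was 0.09 (SE 0.12, adjusted p = 0.594). Both libraries lay above wildtype for 4 S-Laps and below for 1, where 22.8% of all genes tested were above and 57.1% below. The RPKM and the fitted value differ in direction for S-Lap5 because the fit scales libraries by TMM factors, which were 0.881 and 0.882 in the Zeus knockdown.

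The spread entering these tests was shared by the 3 groups, and the Caf40 knockdown libraries differed most from each other. Without Caf40 knockdown replicate 1 or 2, 6 S-Laps rose in the Zeus knockdown each time, all except S-Lap5, with log2 fold changes for them from 0.19 to 0.39, and with the 4 libraries of the comparison alone 7 rose. The SE of S-Lap1 was 0.025 or 0.026 in these fits against 0.13 with all 6 libraries. The share of all genes that rose in these fits is not given here, so these counts cannot be called particular to the S-Laps.

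Each S-Lap was higher in the Zeus knockdown than in the Caf40 knockdown. The differences, Zeus minus Caf40, ran from 0.89 for S-Lap7 to 1.37 for S-Lap5 on the log2 scale, and all 7 passed (edgeR adjusted p from 8.67e-08 to 2.13e-05), with a median of 1.33 against -0.08 over all genes tested. In this comparison 40.2% of all genes tested were higher in the Zeus knockdown and 43.3% lower, 83.5% together. By RPKM both Zeus libraries lay above both Caf40 libraries for all 7 S-Laps, and for 35.2% of all genes tested, with 57.5% below. Of the 555 other genes at this level, 93.2% were higher. The comparisons of each knockdown with wildtype share the wildtype libraries, and their values are given side by side here without a correlation between them.

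**Figure D2:**
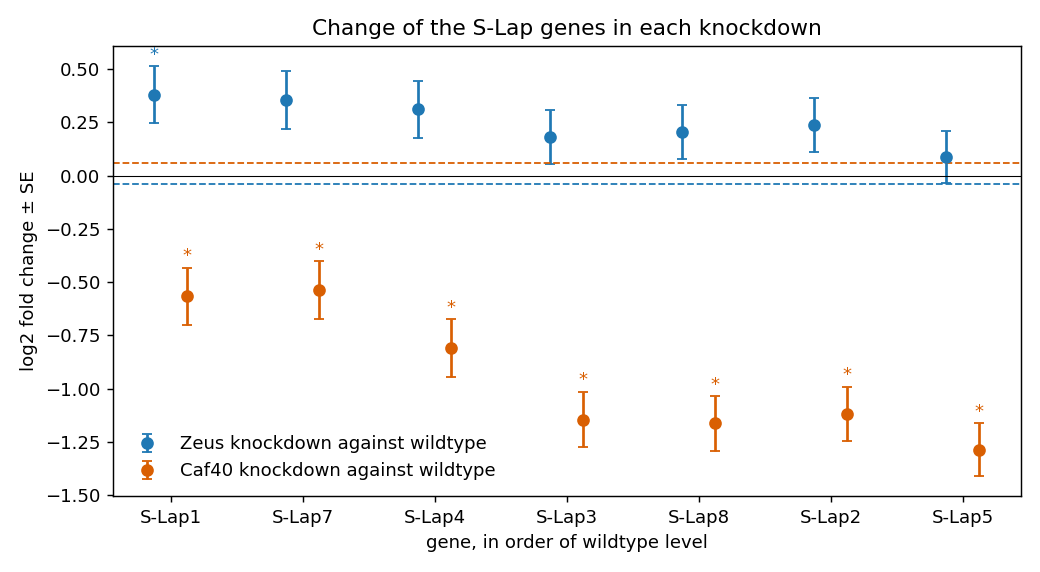
Fitted log2 fold change against wildtype (vertical axis, bars are SE) for each S-Lap gene in order of wildtype level. Stars mark adjusted p under 0.05 and dashed lines the median over all genes tested, -0.04 for Zeus and 0.06 for Caf40, with 1 star in the Zeus and 7 in the Caf40 knockdown.

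The scale of these changes depended on how libraries were scaled. Scaling by library total moved the median log2 fold change over all genes by -0.16 for Zeus, 0.22 for Caf40 and -0.38 for Zeus minus Caf40, and scaling to the same median RPKM moved it by 0.10, -0.30 and 0.40. Relative to the median of all genes, the S-Lap median was 0.28 higher with Zeus knocked down and 1.18 lower with Caf40 knocked down under TMM, under library totals and under the same median RPKM. The balance of rises and falls over all genes moved too. In the Zeus knockdown 1715 of 3761 changed genes rose, against 1000 of 4567 with library totals and 2456 of 3777 with the same median. In the Caf40 knockdown 4281 of 8230 rose, against 4986 of 8160 with library totals and 3271 of 8224 with the same median. For Zeus minus Caf40, 4108 of 8535 were higher, against 3145 of 8625 with library totals and 5135 of 8389 with the same median. Under library totals S-Lap5 had a log2 fold change of -0.074 in the Zeus knockdown.

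The make-up of the S-Lap pool is a ratio within each library and does not depend on that scaling. S-Lap1 made up 23.8% ± 0.44 of the summed RPKM of the 7 genes in wildtype, 25.2% ± 0.075 with Zeus knocked down and 28.1% ± 0.55 with Caf40 knocked down (SD, n = 2). S-Lap7 went the same way, with 20.3% ± 0.15 in wildtype, 21.1% ± 0.36 with Zeus knocked down and 24.3% ± 0.16 with Caf40 knocked down. In each of these genes the libraries of the 3 groups did not overlap. How often shares within other sets of genes separate in this way was not computed. The shares of the 7 genes in a library make up a fixed whole, so a higher share of some genes lowers that of others.

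S-Lap4 kept close to the same share, at 18.3% ± 0.16, 18.5% ± 0.098 and 18.1% ± 0.28 in the same order, with overlap between the Caf40 knockdown and wildtype. S-Lap3 held 12.6% ± 0.23 in wildtype, 11.6% ± 0.080 with Zeus knocked down and 9.91% ± 0.0059 with Caf40 knocked down. S-Lap8 held 12.2% ± 0.29, 11.4% ± 0.25 and 9.46% ± 0.0068. Both shares were lower in each knockdown library than in either wildtype library.

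S-Lap2 held 10.9% ± 0.19 in wildtype, 10.5% ± 0.048 with Zeus knocked down and 8.76% ± 0.040 with Caf40 knocked down. S-Lap5 held 1.87% ± 0.025, 1.62% ± 0.043 and 1.33% ± 0.069. The highest member exceeded the lowest 12.8 ± 0.41 times in wildtype, 15.6 ± 0.37 times with Zeus knocked down and 21.2 ± 1.51 times with Caf40 knocked down, so the range of levels was wider in both knockdowns.

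**Figure D3:**
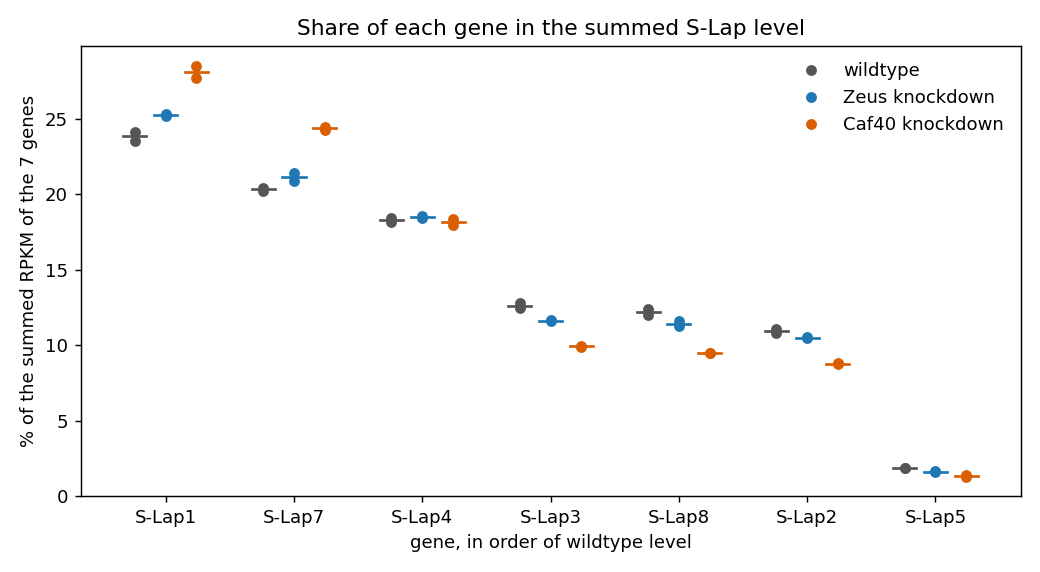
Share of each S-Lap gene in the summed RPKM of the 7 genes, in percent (vertical axis from 0), by gene. Each point is a library and each bar a mean of 2 libraries, and S-Lap1 and S-Lap7 have their highest shares in the Caf40 knockdown while S-Lap3, S-Lap8, S-Lap2 and S-Lap5 have their lowest there.

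Of 21 pairs of S-Laps, 20 had log2 ratios that did not overlap with wildtype in each knockdown, many by small amounts. The same share over pairs of other genes was not computed, so this count cannot be called particular to the S-Laps. The log2 ratio of S-Lap1 to S-Lap7 differed by 0.02 between the Zeus knockdown and wildtype and by -0.03 between the Caf40 knockdown and wildtype, within the spread of replicates. That of S-Lap3 to S-Lap8 differed by -0.02 and 0.02, without overlap. By contrast, the log2 ratio of the neighbours S-Lap1 and S-Lap2 was 1.09 and 1.16 in wildtype, 1.26 and 1.27 with Zeus knocked down and 1.70 and 1.65 with Caf40 knocked down. The 2 adjacent genes thus differed in response by 0.56 in the Caf40 knockdown. S-Lap5 and S-Lap7, also on the same arm, moved apart by 0.76. The largest SD within a group over all 21 pairs was 0.10. These pairs share genes and libraries, and with 2 libraries a group the differences were not tested beyond that spread.

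Across the 7 S-Laps the change followed the wildtype level. Spearman's rho between wildtype level and log2 fold change was 0.86 in the Caf40 knockdown (Pearson's r 0.74 on log2 levels) and 0.86 in the Zeus knockdown (r 0.88). Over the 555 other genes at this level the same rho was 0.04 and 0.19. These are descriptions over genes measured in the same libraries, and the 7 genes are not independent replicates. The wildtype libraries enter the level and the change in each knockdown, so the values of rho for the knockdowns are not independent of each other.

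**Figure D4:**
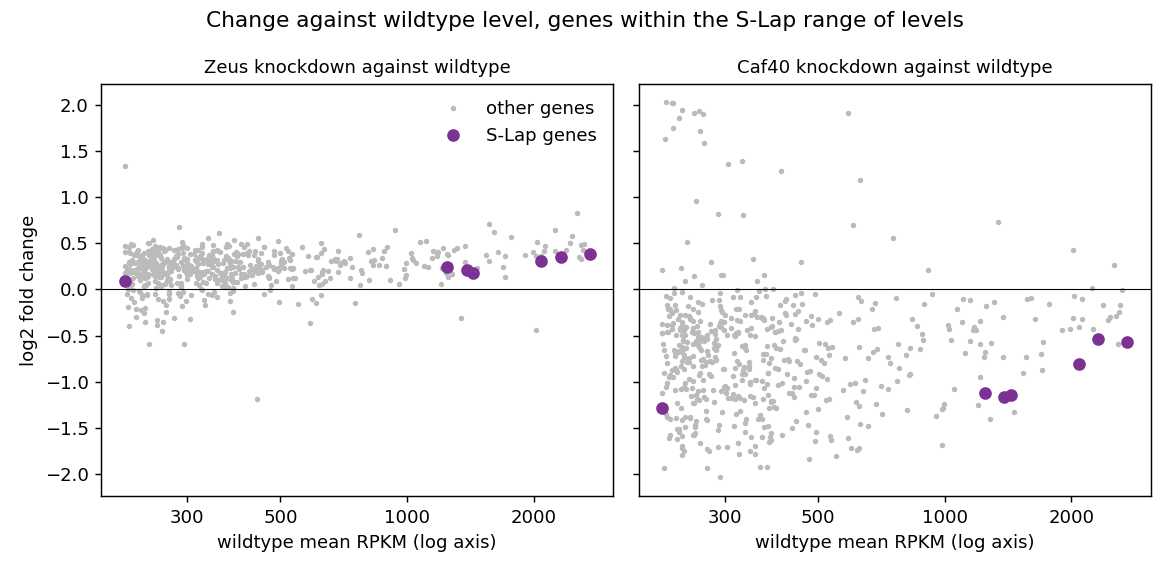
Fitted log2 fold change (vertical axis) against wildtype mean RPKM (horizontal log axis) for the 7 S-Lap genes and the 555 other genes tested at levels between those of S-Lap5 and S-Lap1. Most other genes lie above 0 with Zeus knocked down and below 0 with Caf40 knocked down, where the S-Laps run from -1.29 at the lowest level to -0.54 and -0.57 at the highest.

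The files count reads on exon junctions separately, which gives a second readout for the S-Laps with introns. S-Lap4, S-Lap5 and S-Lap7 have no annotated intron and had 0 junction reads in each library. S-Lap3, which has an intron in only some of its 3 annotated transcripts, had between 25 and 85 junction reads, at most 0.109% of its reads. S-Lap1 and S-Lap2 have 2 introns each and S-Lap8 has 1.

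S-Lap2 had a lower share of junction reads in both knockdowns than in wildtype. The share was 2.40% and 2.22% in wildtype, 1.54% and 1.44% with Zeus knocked down and 1.44% and 1.45% with Caf40 knocked down. The 95% Wilson intervals of the knockdown libraries reached at most 1.67%, and those of wildtype went down to 2.11% (intervals cover counting error only).

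Its neighbour S-Lap1 had 2.54% and 2.35% in wildtype, 2.76% and 2.71% with Zeus knocked down and 2.63% and 2.52% with Caf40 knocked down. S-Lap8 had 2.38% and 2.34%, then 2.44% and 2.47%, then 2.05% and 2.15% in the same order. Of 415 genes with at least 100 junction reads in each library, 11.3% had a lower junction share in every knockdown library than in both wildtype libraries. Only 3 of them, S-Lap2 included, were at least as far below wildtype as S-Lap2 in both knockdowns (log2 ratio of shares -0.64 for Zeus and -0.68 for Caf40). The intervals of the Zeus and the Caf40 knockdown libraries overlapped. The genes and the rule for this comparison were chosen after the values were seen, and no test was made. Junction reads are a small part of the count, and with genome reads alone all 7 falls in the Caf40 knockdown also passed the test.

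**Figure D5:**
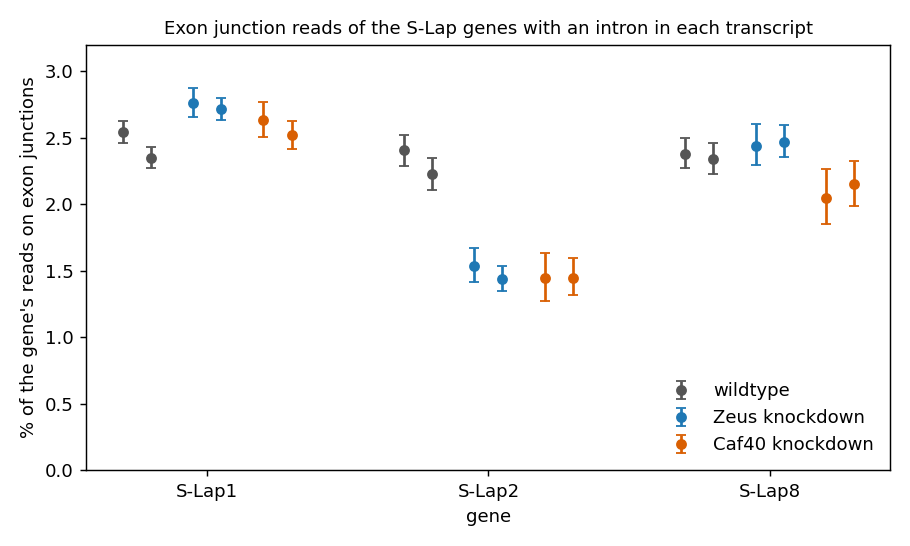
Percent of each gene's reads that lay on exon junctions (vertical axis from 0) for S-Lap1, S-Lap2 and S-Lap8. Each point is a library and each bar a 95% Wilson interval, and S-Lap2 lies at 1.54% or below in the 4 knockdown libraries against 2.22% and 2.40% in wildtype.

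Other peptidase genes moved in both directions or did not pass. Of 10 aminopeptidase genes outside the family, 6 were found and 5 tested. In the Caf40 knockdown 1 rose and 1 fell (median log2 fold change 0.15), and in the Zeus knockdown 1 rose and 0 fell (median 0.10), beside the background shares given above. Dip-B, a dipeptidase of the same peptidase family, rose from 54.2 and 57.3 RPKM in wildtype to 207 and 221 with Caf40 knocked down, a log2 fold change of 1.71 (SE 0.10, adjusted p = 1.62e-09), the opposite direction to the S-Laps. It measured 54.4 and 53.8 RPKM in the Zeus knockdown, a log2 fold change of 0.10 (adjusted p = 0.432).

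Granny smith (grsm), a leucyl aminopeptidase relative outside the S-Lap group, measured 236 and 241 RPKM in wildtype, 247 and 254 with Zeus knocked down and 172 and 186 with Caf40 knocked down. Its fall with Caf40 knocked down had a log2 fold change of -0.64 (SE 0.11, adjusted p = 5.15e-05) and it did not pass in the Zeus knockdown (0.22, adjusted p = 0.111). The dipeptidyl peptidase gene DppIII rose from 373 ± 5.11 to 473 ± 9.26 RPKM (SD, n = 2) in the Zeus knockdown (log2 fold change 0.49, adjusted p = 0.00328). ApepP, an aminopeptidase P, measured 0.16 in the Caf40 knockdown on the log2 scale (adjusted p = 0.104).

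Of 12 genes of the sperm mitochondria, 11 were found and tested, of which 0 rose and 8 fell in the Caf40 knockdown (median log2 fold change -0.91), where 38.6% of all genes tested fell. In the Zeus knockdown 4 rose and 0 fell (median 0.24), where 16.8% of all genes rose. Fuzzy onions (fzo), the fusion GTPase of spermatid mitochondria, fell from 119 ± 14.1 to 36.7 ± 3.60 RPKM (SD, n = 2) with Caf40 knocked down, a log2 fold change of -1.92 (adjusted p = 2.86e-09). Parkin (park), a ubiquitin ligase of mitochondrial quality control, fell from 35.3 to 12.6 RPKM there (-1.71, adjusted p = 1.03e-09), and the testis import receptor tomboy20 from 495 to 276 RPKM (-1.07, adjusted p = 7.65e-07).

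With Zeus knocked down, park, Pink1 and rho-7 rose by 0.34, 0.36 and 0.34 on the log2 scale (adjusted p = 0.00865, 0.00900 and 0.0115). Pink1 encodes a mitochondrial kinase that acts with parkin, and rho-7 a mitochondrial membrane protease. The list's fzo did not pass in the Zeus knockdown (-0.25, adjusted p = 0.0993).

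Of 7 sperm tail genes of the Mst(3)CGP group, 0 rose and 2 fell in the Caf40 knockdown, with a list median of -0.11. Mst98Cb fell by 0.62 and Mst98Ca by 0.49 on the log2 scale (edgeR adjusted p = 0.000132 and 0.00167). In that knockdown 38.6% of all genes tested fell, and of the 555 at the level of the S-Laps 80.9%, with a median of -0.67. In the Zeus knockdown 6 rose and 0 fell, with a median of 0.47, led by Mst84Db, from 2245 ± 80.9 to 3173 ± 71.1 RPKM (log2 fold change 0.65, adjusted p = 0.000894). Of all genes tested 16.8% rose there, and of the 555 at the level of the S-Laps 36.6%. Mst84Dd and Mst87F rose by 0.52 and 0.50 (adjusted p = 0.00311 and 0.00478).

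Of 12 meiotic arrest regulators, which switch on the transcription programme of spermatocytes, 1 rose and 11 fell in the Caf40 knockdown (median -0.98), against 41.9% and 38.6% of all genes tested. In the Zeus knockdown 0 rose and 4 fell (median -0.24), against 16.8% and 20.0%. The testis TAF genes can and sa fell by 1.86 and 1.47 on the log2 scale in the Caf40 knockdown, and the tMAC subunit gene topi by 1.42 (adjusted p = 3.56e-10, 8.33e-09 and 3.74e-09). With Zeus knocked down, can, topi and vis fell by 0.97, 0.45 and 0.56 (adjusted p = 1.41e-06, 0.00163 and 0.00232).

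Markers of other stages and tissues also moved, on a background of 41.9% of all genes tested rising and 38.6% falling with Caf40 knocked down, and 16.8% and 20.0% with Zeus. Of 8 early germline genes 7 were found and 6 tested, of which 5 rose and 1 fell in the Caf40 knockdown, with a median log2 fold change of 2.24. The spermatogonial regulator bam went from 3.41 and 3.23 RPKM in wildtype to 41.0 and 32.1 in the Caf40 knockdown, and the gap junction gene zpg from 4.30 and 4.14 to 60.8 and 48.1. With Zeus knocked down 0 of the 6 rose and 6 fell (median -0.71). Of 8 cyst and hub genes 4 rose and 3 fell in the Caf40 knockdown and 2 rose and 1 fell in the Zeus knockdown. The gene piwi is on this list and on the early germline list and was counted in both. It was the 1 cyst and hub gene that fell with Zeus knocked down. Of 6 muscle genes found, 3 rose and 1 fell in the Caf40 knockdown and 3 rose and 0 fell in the Zeus knockdown.

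Of 8 accessory gland genes 4 were tested, of which 0 rose and 2 fell in the Caf40 knockdown and 2 rose and 1 fell in the Zeus knockdown. Of 7 fat body genes 3 were tested, of which 1 rose and 2 fell in the Caf40 knockdown and 1 rose and 1 fell in the Zeus knockdown. Acp70A, a defining gene of the accessory gland, was at 0 in both Caf40 knockdown libraries and in wildtype replicate 2. It was at most 1.39 RPKM elsewhere. Across all genes tested 80.5% passed in either direction with Caf40 knocked down and 36.8% with Zeus. The part of these marker shifts in the S-Lap changes was not tested.

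The genes most like the S-Laps over the 6 libraries were sought among the 555 others at this level, as the smallest root mean square difference from the median S-Lap profile of log2(RPKM + 1) relative to wildtype. They were CG4681 (difference 0.012), CG3085 (0.021), CG7251 (0.024), the heat shock cognate gene Hsc70-2 (0.026) and gskt (0.032), a testis homologue of the kinase gene shaggy. CG4681 measured 215 and 212 RPKM in wildtype, 231 and 228 with Zeus knocked down and 106 and 123 with Caf40 knocked down. S-Lap2, S-Lap8 and S-Lap3 lay at 0.0024, 0.033 and 0.036 from the same median, and S-Lap1 and S-Lap7 at 0.33 and 0.34. The 5 genes outside the family were picked as the closest of 555, while the S-Laps were not picked by distance. Their distances are therefore no measure of how alike the S-Laps are.

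The genes next to the S-Laps were mostly low in wildtype. CG6282, next to S-Lap1, measured 1.15 and 0.961 RPKM in wildtype, and CG33459, next to S-Lap8, 0.140 and 0.0503. CG32061 and CG6527 were abundant in testis. CG32061, next to S-Lap3, measured 254 and 274 RPKM in wildtype and 195 and 233 in the Caf40 knockdown, and CG6527, the nearest listed gene after S-Lap4, 303 and 327 RPKM in wildtype and 206 and 252 in the Caf40 knockdown. With Caf40 knocked down, CG6282 measured 0.538 and 0.296 RPKM, and Cpr50Ca, next to S-Lap7, was also below both wildtype libraries. Some other low neighbours were higher there, where 54.4% of all genes tested had both libraries above wildtype by RPKM and 35.8% below. Sema2a, the nearest listed gene after S-Lap8, went from 5.28 and 4.84 RPKM in wildtype to 21.9 and 17.5. The gene fand, next to S-Lap5, went from 4.08 and 4.46 to 15.9 and 14.3 RPKM, and GAPsec, next to S-Lap2, from 2.97 and 3.27 to 11.5 and 11.4 RPKM.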

How the data were processed

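Messenger RNA libraries were single-end Illumina, per the labels' protocols. Reads were aligned with Bowtie to dm3, per the submitters' processing notes. Aligner version, annotation release, strand and the treatment of multiply matching reads were not given in the sources used here. Whole read counts on each gene, with their genome and junction parts, exon length, library totals and RPKM, were deposited, per the file headers. The RPKM matched the count scaled by that length and the mapped reads for every gene. The deposited gene_exon_length, a number of another kind, served only for RPKM.

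Symbols came from a current list of gene names and from RefSeq synonyms. Arms came from RefSeq, and gene order, strands, introns and overlaps from the BDGP6 annotation. As these are not the authors' build, no coordinates are given, and no sequences were used. Of 15178 identifiers, 84.8% had a symbol. Genes averaging 1 RPKM or more over the 6 libraries were fitted as counts with edgeR 4.0.16 in R 4.3.3, with TMM, the quasi-likelihood test (two-sided), Benjamini-Hochberg adjustment over 10223 genes and a threshold of 0.05. The 3 groups shared 1 estimate of the spread for each gene, and no block was used. The common biological coefficient of variation over all genes was 0.0747. SE is the log2 fold change over the root of F. Fits were tested on simulated data with the same spread in each group and few, balanced changes. That setting is simpler than these libraries, so it does not vouch for the p-values here. Chi-square per degree of freedom of 2.06, 14.5 and 5.15 (Zeus, Caf40, wildtype) showed that replicates differed by more than sampling noise.

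Every family member found is named, with up to 3 genes of smallest adjusted p per list, the 5 genes most like the family, and genes that neighbour or overlap members. Members, lists and tests were chosen with earlier results of these data known. The junction shares, the genes of equal level and the neighbours were added after the values were seen. Alternatives were DESeq2 1.42.0, limma 3.58.1 on log2(RPKM + 1) or log2(RPKM + 0.1), other scalings and filters, the 4 libraries compared, a replicate block, genome reads alone and each library left out. The D. simulans and D. yakuba libraries were not used here.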

Additional observations from a re-analysis of the deposited data

How the results depend on the processing

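All 7 S-Laps fell in the Caf40 knockdown and all 7 were higher in the Zeus than in the Caf40 knockdown under each alternative run. The number of S-Laps that rose in the Zeus knockdown, 1 as reported, was 0 with DESeq2 size factors, 0 with limma at a pseudocount of 1 or 0.1, and 0 with the replicate block. It was 2 with library totals, with a mean RPKM of at least 5, with genome reads alone and with TMM factors computed without the S-Laps (an alternative added after seeing the data). It was 3 with the same median RPKM and 3 with the DESeq2 Wald test, and 7 with only the 4 libraries compared. With each library left out it ran from 0 to 6, and the count over all genes from 1625 to 5360 against 3761. No S-Lap fell in the Zeus knockdown under any of them. Of all 10223 genes tested, 1715 rose in the Zeus knockdown as reported and 1715 with DESeq2 size factors. With library totals 1000 rose, with the same median RPKM 2456 and with the DESeq2 Wald test 1483. The numbers of all genes that rose in the Zeus knockdown under the other alternatives are not given here. S-Lap5 had a negative log2 fold change there with library totals (-0.074) and with limma at either pseudocount (-0.061 and -0.062), none past the threshold. Why the number of S-Laps called in the Zeus knockdown moved was not tested. It moved in fits with libraries left out and in fits with every library kept. Replicate numbers are shared by the groups, but same-numbered libraries did not deviate together (correlations of 0.02, -0.04 and -0.05), so the block pairs libraries by number only; it left the 7 falls in the Caf40 knockdown. Counting error was at most 2.00% for any S-Lap value, and how more libraries would change the calls was not tested.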
